A study of Mus musculus with 8 samples.

Results

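The aminoacyl-tRNA synthetases were followed by their messenger RNA in mouse liver with and without Xbp1, on chow and on a high-fat diet. The set was defined by name and holds 36 genes of the 22923 gene symbols in the deposited values. It comprises 20 genes for the enzymes that charge tRNA in the cytosol and 16 genes for the enzymes that work in mitochondria, whose symbols end in 2. Of these genes, 34 reached 1 RPKM (reads scaled by transcript length and by the mapped reads of the library) in at least 1 group, and only these entered the comparisons. Mars2 and Wars2, the mitochondrial enzymes for methionine and tryptophan, stayed below it. Aars shared 1 row of values with Exosc6, a gene that lies within its span, and the value given for Aars is that of both.

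Liver RNA came from C57BL/6 mice of genotype Xbp1flox, which served as controls (flox), or Xbp1-/-, described as lacking Xbp1 in the liver (knockout). Each genotype received either chow or, for 4 weeks, a high-fat diet plus a high-fructose corn syrup equivalent, which makes 4 groups. Each group held 4 mice pooled into 2 libraries, and the deposited values give 1 number per gene and group. No spread between libraries could be calculated, so the differences below have no replicate check and no test. The line that drove the deletion, and the sex and age of the mice, were not stated in the sources used here.

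Each synthetase joins 1 kind of amino acid to its tRNA, the step that fixes the genetic code in translation. Most cytosolic and mitochondrial enzymes come from separate genes, while Gars and Kars supply both compartments and Eprs carries the enzymes for glutamate and proline in 1 protein. In mammals 8 of the cytosolic enzyme genes encode parts of a multisynthetase complex held together by scaffold proteins. Many cytosolic synthetase genes are known targets of ATF4, the transcription factor of the integrated stress response, which binds a sequence called the C/EBP-ATF response element. The product of Xbp1 is a transcription factor in the unfolded protein response, the pathway by which liver cells match the folding capacity of their endoplasmic reticulum to secretion.

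The sequence that ATF4 binds was searched for in RefSeq promoter windows (GRCm38.p6, 250 bases before to 50 after the start of the gene) of the synthetase genes. Windows were found for 27 of the 36 genes, 13 cytosolic and 14 mitochondrial. The core TGATGNAA, on either strand, was present in a window of 5 of the 13 cytosolic genes and of 0 of the 14 mitochondrial ones. Among all genes with a window, 1219 of 27025 had a match, and 3.97% of all 32851 windows did. The 5 genes were Aars, Gars, Iars, Tars and Yars, the enzymes for alanine, glycine, isoleucine, threonine and tyrosine. Asns, which makes asparagine, and Trib3, a pseudokinase induced by ATF4, carried it too and are shown for comparison. They were picked from genes with a match. In the ATF4-linked lists used below, 7 of 18 stress response and 2 of 10 amino acid synthesis genes with a window had one. Ddit3 and Psat1 had a window without a match. Matches are given below in capitals for Asns, Trib3 and 4 of the synthetases. On the gene's own strand the match reads TGATGNAA in Yars and Asns and the reverse complement in the others.
Gars, 30 bases before the start, chr6:55037956-55037993, plus strand: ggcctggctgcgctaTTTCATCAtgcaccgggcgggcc
Iars, 7 bases after the start, chr13:49682126-49682155, plus strand: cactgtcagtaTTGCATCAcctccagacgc
Tars, 15 bases before the start, chr15:11399655-11399684, minus strand: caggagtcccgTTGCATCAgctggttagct
Yars, 3 bases after the start, chr4:129189895-129189924, plus strand: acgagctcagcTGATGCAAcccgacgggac
Asns, 23 bases before the start, chr6:7693210-7693247, minus strand: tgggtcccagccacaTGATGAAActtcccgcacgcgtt
Trib3, 14 bases after the start, chr2:152344028-152344057, minus strand: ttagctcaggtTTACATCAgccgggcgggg

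Sequences bound by XBP1 and ATF6 were searched for in the windows of the same 27 genes. TGACGTGG, found in 0.676% of all windows, was in 0 of the 27 genes, and the ER stress response element, CCAAT and CCACG with 9 bases between them, found in 0.119% of all windows, was also in 0. A match describes the letters in this window and not a bound site.

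The libraries as a whole differed in ways that touch every value below. Xbp1 itself stood at 112 RPKM on chow and 90.7 RPKM on the high-fat diet in flox liver, and was lower in knockout liver, at 44.2 RPKM on chow and 34.1 RPKM on the high-fat diet. Deposited values summed to between 367414 RPKM in knockout high-fat liver and 513694 RPKM in flox chow liver. Alb, the defining product of hepatocytes, was listed at 0 in all 4 groups, although albumin is among the most abundant messages of liver. Values of exactly 0 may thus be failed estimates, and genes with one in a compared group were left out. Of 10 hepatocyte markers, 7 had a value above 0 in every group, and these summed to 23584 RPKM on chow and 22165 RPKM on the high-fat diet in flox liver, and to 14941 and 10256 RPKM in knockout liver, the order of the sums that follow. Besides Alb, Serpina1a was left out of this sum, being listed at 0 in the other groups and at 1858 RPKM in knockout high-fat liver. The list of 8 cholangiocyte and progenitor markers summed to 28.6, 29.9, 51.5 and 123 RPKM. Macrophage markers summed to 162, 198, 156 and 261 RPKM, stellate cell and fibroblast markers to 101, 98.4, 127 and 166 RPKM, endothelial markers to 92.8, 89.4, 84.9 and 88.5 RPKM and lymphocyte markers to 4.60, 4.79, 5.46 and 7.28 RPKM. Red blood cell markers summed to 1292, 1743, 1830 and 872 RPKM. Each sum follows its most abundant markers. Clec4g was the largest part of the endothelial sum, at 47.8, 35.2, 39.9 and 35.5 RPKM, and was lower on the high-fat diet. The other endothelial markers were all higher on that diet in both genotypes as deposited. In bulk liver RNA, fewer cells of a type and less RNA per cell cannot be told apart.

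The cytosolic enzymes were expressed at moderate and similar levels in every group. Their median was 14.0 RPKM on chow and 13.6 RPKM on the high-fat diet in flox liver, and 14.6 and 11.6 RPKM on the same diets in knockout liver. Sets of 4 values below are RPKM in this order of groups. Aars with Exosc6 had the highest value in each group, at 37.2, 35.0, 38.3 and 32.0 RPKM. Close together below it were Nars, the asparagine enzyme, at 29.3, 30.0, 26.9 and 24.4 RPKM, Tars at 28.5, 27.1, 27.7 and 19.1 RPKM, and Dars, for aspartate, at 28.1, 27.2, 29.5 and 24.2 RPKM. The lowest were Lars, the leucine enzyme, at 4.58, 4.56, 4.67 and 4.39 RPKM, and Wars, the tryptophan enzyme, at 4.75, 4.70, 5.80 and 5.27 RPKM. Kars, the lysine enzyme of both compartments, stood at 25.9, 21.8, 24.3 and 20.0 RPKM. Eprs, the joint enzyme for glutamate and proline, stood at 20.3, 19.1, 20.6 and 17.8 RPKM. Gars, which serves glycine in both compartments, stood at 14.6, 14.4, 17.8 and 16.0 RPKM. As deposited, Kars and Eprs were lowest in knockout high-fat liver, while Gars was higher in both knockout groups than in either flox group. The phenylalanine enzyme is built from 2 kinds of subunit, and its beta subunit gene Farsb stood at 14.1, 13.3, 14.7 and 12.1 RPKM where the alpha subunit gene Farsa stood at 7.07, 6.07, 7.18 and 6.15 RPKM. Qars stood at 15.1, 13.8, 15.2 and 12.1 RPKM, Hars at 14.4, 13.4, 14.1 and 11.1 RPKM and Rars, for arginine, at 12.4, 12.1, 12.3 and 10.3 RPKM. These 3 genes shared a pattern, as deposited, in which the other groups lay close together and knockout high-fat liver was below them. Iars stood at 7.76, 7.58, 8.30 and 8.59 RPKM, Vars at 6.57, 6.09, 7.16 and 7.12 RPKM and Sars at 13.8, 14.1, 15.8 and 15.1 RPKM. All 3, like Gars and Wars, had both knockout values above both flox values as deposited, without a spread between libraries to set this against. Cars, for cysteine, stood at 6.76, 6.61, 6.44 and 6.36 RPKM and Yars at 8.11, 6.69, 7.69 and 6.74 RPKM, so Cars was nearly level and Yars was lower on the high-fat diet in each genotype. Levels of neighbours in this order, such as Nars and Tars in flox chow liver, cannot be ranked without a spread between libraries.

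Mitochondrial enzymes were lower, with one exception. Their median was 4.60, 4.36, 4.56 and 3.34 RPKM. Lars2, which charges mitochondrial tRNA with leucine, stood at 141, 104, 124 and 66.5 RPKM, above every other synthetase in all 4 groups. Whether all reads counted for Lars2 came from its messenger RNA cannot be read from the deposited values, and this limit holds for every value of Lars2 below. Lars2 alone made up more of the summed mitochondrial synthetase RPKM (228, 185, 213 and 140) than the other 15 genes together in 3 of the 4 groups. Without it the sum was 86.7, 81.5, 88.4 and 73.7 RPKM. Iars2 was next, at 16.4, 18.0, 16.8 and 18.0 RPKM, and Fars2, the mitochondrial phenylalanine enzyme, stood at 13.9, 12.2, 12.6 and 9.07 RPKM. Tars2 stood at 10.7, 9.10, 11.3 and 10.3 RPKM and Rars2 at 6.32, 5.64, 6.78 and 5.61 RPKM. Vars2 stood at 5.03, 4.31, 4.91 and 4.12 RPKM and Ears2 at 3.22, 2.56, 2.92 and 2.30 RPKM. As deposited, these 4 genes were lower on the high-fat diet than on chow in both genotypes. So were most tested mitochondrial genes, 12 of 14 in flox and 13 of 14 in knockout liver. Cars2 stood at 4.68, 4.35, 4.44 and 3.47 RPKM, Aars2 at 4.08, 3.84, 3.57 and 2.89 RPKM and Hars2 at 4.51, 4.38, 4.57 and 3.20 RPKM. Nars2, at 3.66, 3.57, 3.56 and 2.39 RPKM, was like Hars2 in being nearly level in the other groups and lower in knockout high-fat liver. Pars2, for proline, was near the filter at 1.02, 0.750, 1.06 and 0.834 RPKM. Mars2 was at 0.599, 0.685, 0.742 and 0.551 RPKM and Wars2 at 0.727, 0.966, 0.798 and 0.781 RPKM.

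**Figure D1:**
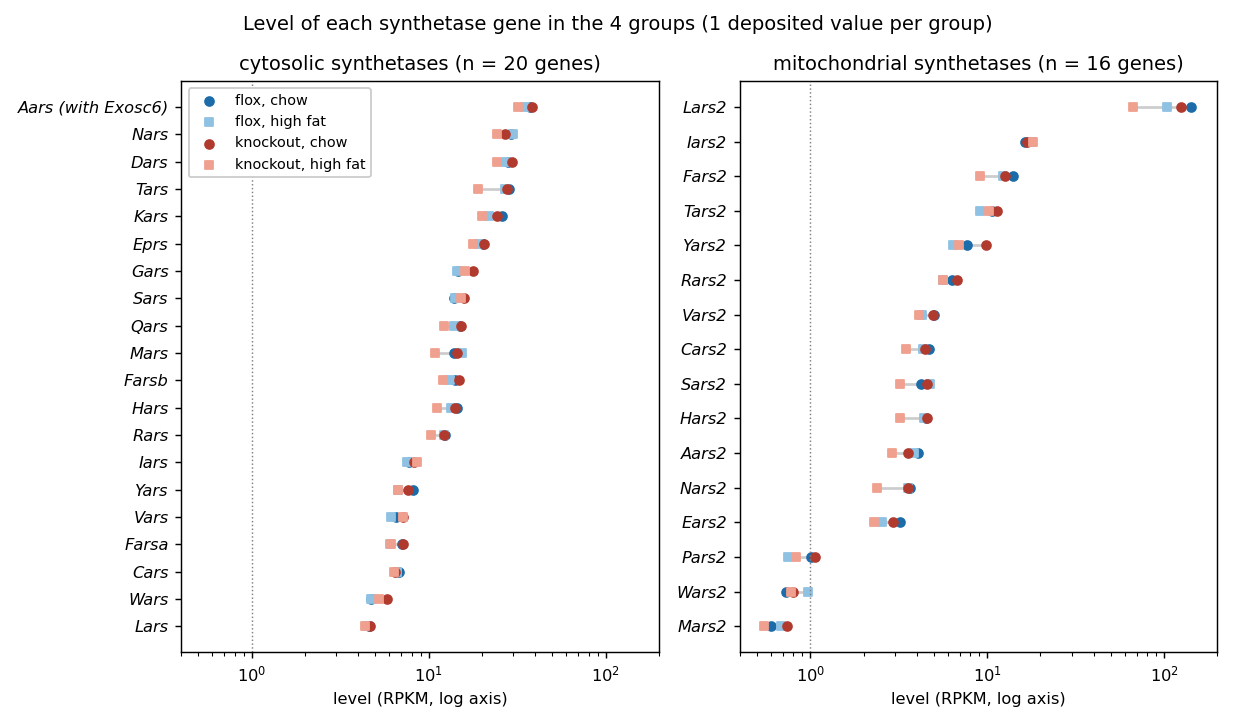
RPKM of each of the 36 synthetase genes (log axis) in the 4 groups, with cytosolic and mitochondrial genes apart. Each point is the 1 deposited value of a group, and no error can be drawn. Lars2 lies above every other gene and Mars2 and Wars2 lie below 1 RPKM.

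Cytosolic and mitochondrial genes were paired for 15 amino acids, counting Eprs against both Ears2 and Pars2. Phenylalanine was left out, since its cytosolic enzyme has 2 subunit genes, Farsa and Farsb, against Fars2. The cytosolic gene had the higher RPKM in 13 of 15 pairs in both flox groups and in 12 of 15 in both knockout groups. The median ratio of cytosolic to mitochondrial RPKM was 3.20, 2.99, 3.09 and 3.47. Mars exceeded Mars2 by between 19.5 and 23.3 times over the groups, and Aars exceeded Aars2 by between 9.10 and 11.1 times. Leucine and isoleucine ran the other way in all 4 groups, with Lars at 0.033 to 0.066 of Lars2 and Iars at 0.421 to 0.495 of Iars2. Tyrosine was near parity, with a Yars to Yars2 ratio of 1.06, 1.04, 0.781 and 0.970, and this pair accounts for the change in the count.

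**Figure D2:**
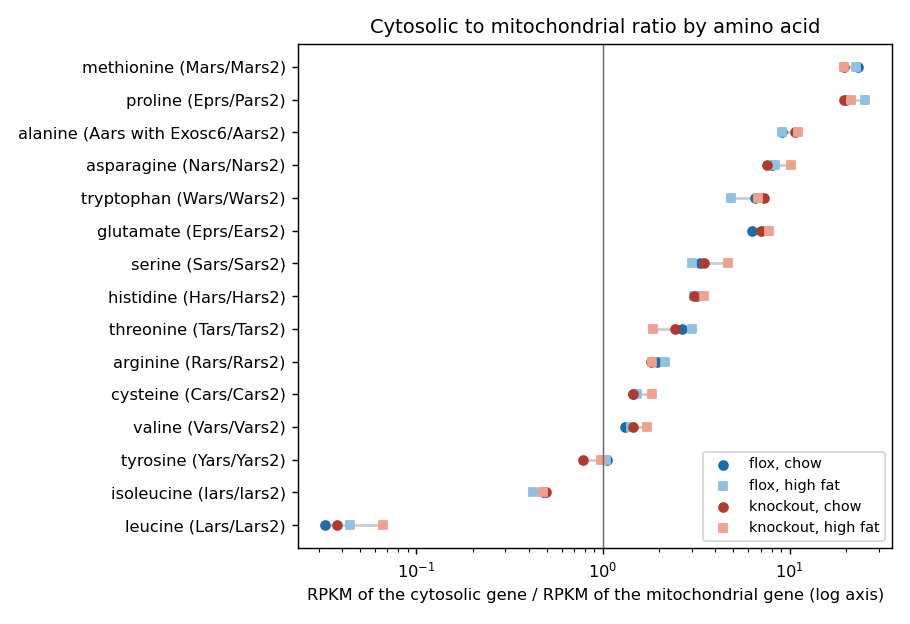
Ratio of cytosolic to mitochondrial RPKM for each of the 15 amino acid pairs (log axis, line at a ratio of 1), 1 point per group. Leucine and isoleucine lie below 1 in all 4 groups, and tyrosine crosses the line.

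The cytosolic enzymes varied little over the 4 groups. The ratio of the highest to the lowest group had a median of 1.21 over the 20 cytosolic genes, from 1.06 in Cars and Lars to 1.49 in Tars, and 0 of 20 reached 1.5. Among 4466 genes of the same range of levels (4.55 to 35.6 RPKM, the cytosolic genes included) the median ratio was 1.33, and 26.1% reached 1.5. The 13 mitochondrial genes with at least 1 RPKM in every group had a median ratio of 1.42, and 4 of 13 (30.8%) reached 1.5, against a median of 1.35 and 29.3% for all 9416 genes with at least 1 RPKM in every group. The 4 were Lars2 at 2.12 and Fars2, Nars2 and Yars2 at 1.53 each. Both sets were most often lowest in knockout high-fat liver, 13 of 20 cytosolic (65%) and 10 of 13 mitochondrial genes (76.9%), where 55.4% of all genes and 63.3% of genes in the cytosolic range were also lowest. These shares have no test and were read as descriptions of these 4 groups as deposited. They depend on the scaling of the groups. With the sum outside the 50 most abundant genes made equal, 18 of 20 cytosolic genes were higher in knockout than in flox high-fat liver. The same held for 7 of the 14 tested mitochondrial genes, and such genes are then not lowest in knockout high-fat liver.

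Loss of Xbp1 on chow was compared first, using log2((a + 1)/(b + 1)) of the RPKM values, a scale that understates changes of low genes. The words rose and fell are kept for changes of at least 1.5-fold on this scale (0.585 in log2). Of 20 cytosolic and 14 mitochondrial genes, 0 rose and 0 fell, where 1.09% of 10322 genes rose and 3.84% fell. Making the sums outside the 50 most abundant genes equal turned 113 rising and 396 falling genes of the whole table into 171 and 267. The median change was 0.02 for cytosolic, -0.01 for mitochondrial and -0.02 for all genes. Above 0 were 13 of 20 cytosolic and 7 of 14 mitochondrial genes as deposited, 15 and 7 with the median ratio set to 0, and 20 and 12 with the equal sums, when the medians were 0.16, 0.10 and 0.10. The highest cytosolic differences were in Gars, at 14.6 RPKM in flox liver and 17.8 RPKM in knockout (log2 0.27), Wars at 4.75 and 5.80 RPKM (log2 0.24) and Sars at 13.8 and 15.8 RPKM (log2 0.18). Nars was the furthest below 0, at -0.12. Of the genes for mitochondrial enzymes, Yars2 was at 7.67 RPKM in flox liver and 9.85 RPKM in knockout (log2 0.32). Lars2 was at -0.18, Aars2, for alanine, at -0.15 and Fars2 at -0.14. As deposited, the 34 genes lay within 0.32 log2 of their flox level on chow. Over the alternative settings tried Yars2 reached 0.45, Gars reached 0.40 and Nars ran from -0.12 to 0.02.

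ATF4 targets outside the synthetases included genes that did pass the threshold in the same livers. Asns rose by 3.17 in log2, from 4.02 RPKM in flox liver to 44.0 RPKM in knockout. Psat1, an enzyme of serine synthesis, was at 0.341 and 1.45 RPKM and rose by 0.87. Of the 6 tested genes in a list of 10 for amino acid synthesis under ATF4, these 2 rose and 0 fell. Psat1 reached the filter of 1 RPKM only in knockout liver, and the listed genes that were not tested stayed below it in every group. Of 18 tested genes in a list of 20 for ATF4 and the integrated stress response, 2 rose, Fgf21, a secreted liver hormone, by 1.39 and Atf5, a transcription factor, by 0.60, and 0 fell. Atf4 messenger RNA was at 41.5 and 38.3 RPKM (log2 -0.11), Ddit3, which encodes the stress factor CHOP, at 4.23 and 5.78 RPKM (log2 0.37) and Trib3 at 3.67 and 3.86 RPKM (log2 0.06). Among the 4 kinases that phosphorylate eIF2alpha and so start this response, Eif2ak3, which encodes PERK, fell by 0.73, from 2.92 RPKM in flox to 1.36 RPKM in knockout liver. Amino acid transporters had 0 of 7 tested genes past the threshold as deposited, too few genes for a 0 to be read as a result. With equal sums outside the 50 most abundant genes, the transporter gene Slc3a2 was past it at 0.63. So was Gdf15 of the stress response list, at 0.66.

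**Figure D3:**
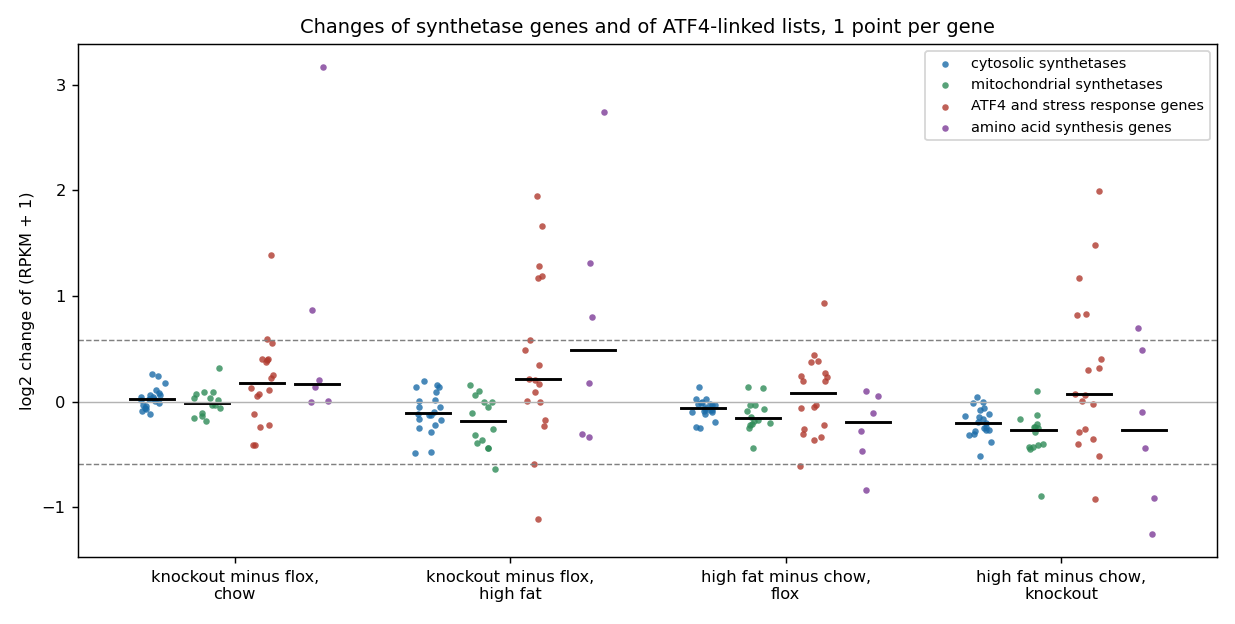
Log2 change of (RPKM + 1) for each tested gene, 1 point per gene, in the 2 genotype and 2 diet comparisons, for cytosolic synthetases, mitochondrial synthetases, ATF4 and stress response genes, and amino acid synthesis genes. Black bars are list medians and dashed lines mark 1.5-fold. Of the synthetases, Lars2 alone lies past a line, at -0.63 with knockout on the high-fat diet and at -0.89 with diet in knockout liver.

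On the high-fat diet, 0 of 20 cytosolic synthetases rose or fell with loss of Xbp1, and 1 of 14 mitochondrial ones, Lars2, fell. Across all 10327 genes tested 3.2% rose and 8.33% fell. The median change was -0.11 for cytosolic, -0.18 for mitochondrial and -0.13 for all genes. Below 0 were 13 of 20 cytosolic and 10 of 14 mitochondrial genes, beside 70.1% of all genes and 79.6% of genes in the cytosolic range of levels. This direction depended on the scaling of the groups: with the median log2 ratio set to 0, 6 of 20 cytosolic and 7 of 14 mitochondrial genes were below 0, and with the sum outside the 50 most abundant genes made equal, 2 of 20 and 7 of 14 were. The same rescalings turned 330 rising and 860 falling genes of the whole table into 541 and 479, or 774 and 314, and the second moved the median of all genes to 0.12. Hepatocyte markers were lower (4 of 7 tested fell) and cholangiocyte and progenitor markers higher (5 of 7 tested rose) in the same comparison, and their part in it was not tested. Of the markers that rose, Krt19 and Epcam reached the filter of 1 RPKM only in knockout high-fat liver and Tspan8 only in knockout liver. They were thus tested because of the groups in which they were high.

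Lars2 fell by 0.63, from 104 RPKM in flox to 66.5 RPKM in knockout high-fat liver, but was at -0.47 and -0.33, short of the threshold, under the 2 rescalings. The next mitochondrial genes were Sars2, for serine, at 4.73 and 3.22 RPKM (log2 -0.44), Nars2, for asparagine, at 3.57 and 2.39 RPKM (log2 -0.43) and Fars2 at 12.2 and 9.07 RPKM (log2 -0.39). Tars, for threonine, had the largest cytosolic difference, at 27.1 RPKM in flox liver and 19.1 RPKM in knockout (log2 -0.49). Mars, for methionine, was close behind at 15.5 and 10.8 RPKM (log2 -0.48). Nars was at -0.29 and Hars, for histidine, at -0.25. On the other side of 0, Vars, for valine, was at 0.19, Iars at 0.16 and Gars at 0.14, and the mitochondrial gene Tars2 at 0.16.

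Of the 18 genes of the ATF4 and integrated stress response list, 5 rose and 2 fell on this diet, and 7 rose and 1 fell under each rescaling. More genes of the whole table also passed the threshold on this diet than on chow, as given above. Nupr1, a stress-induced chromatin protein, rose by 1.95, Ddit3 by 1.67, from 4.99 to 18.0 RPKM, Fgf21 by 1.28, Trib3 by 1.19, from 2.78 to 7.62 RPKM, and Atf3, a transcription factor, by 1.17. Chac1, which degrades glutathione, fell by 1.11, and Herpud1, a component of ER-associated degradation, fell by 0.59, a call at the threshold that both rescalings ended (-0.42 and -0.28). Asns rose by 2.74, from 1.82 to 17.9 RPKM, Psat1 by 1.31 and Aldh18a1, of proline synthesis, by 0.80, the 3 genes of the 6 tested for amino acid synthesis that passed. Of these genes, Aldh18a1 reached the filter of 1 RPKM only in knockout high-fat liver (1.34 RPKM), and Psat1 only in knockout liver. Atf3 of the stress response list also reached it only in knockout high-fat liver (2.38 RPKM). The counts on this diet thus include genes that were tested because they were high in knockout liver. Slc3a2, the heavy chain of several amino acid transporters, rose by 1.35, from 11.6 to 31.1 RPKM, while Slc7a2, a carrier of basic amino acids, fell by 0.81 (-0.51, short of the threshold, with equal sums), out of 7 transporters tested. In the interaction described below, 5 of the 18 were past 1.5-fold upward, among them Nupr1 (1.55), Ddit3 (1.29) and Trib3 (1.13), and 2 downward, Chac1 (-0.89) and Atf5 (-0.59), of which Atf5 was short of the threshold under both rescalings (-0.46 and -0.43). Atf4 was at 32.0 RPKM in both groups. The 12 cytosolic synthetases often listed as ATF4 targets had 0 past the threshold and a median change of -0.05, which turned to 0.10 and 0.21 under the 2 rescalings.

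**Figure D4:**
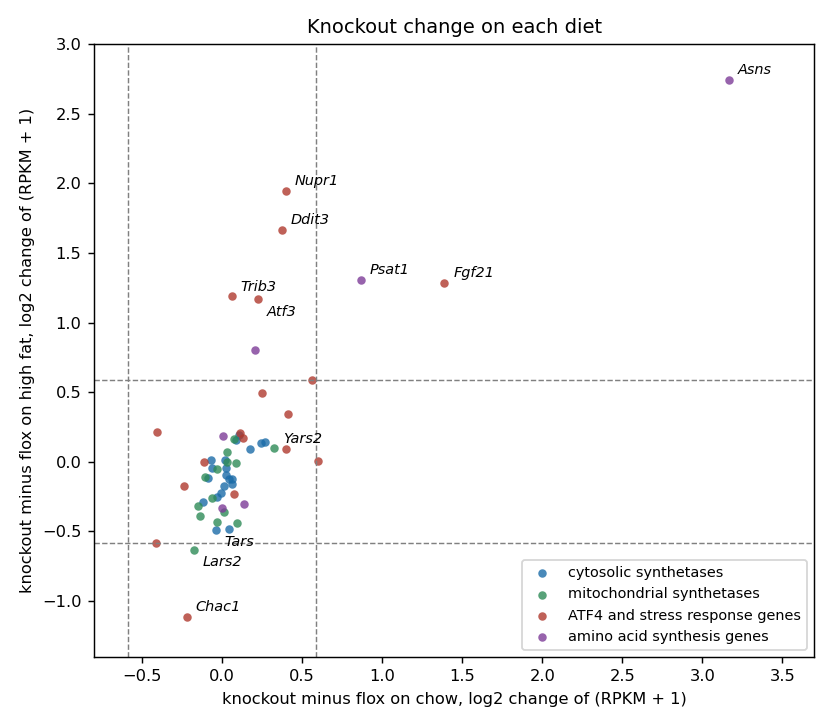
Log2 change of knockout against flox on chow (horizontal axis) and on the high-fat diet (vertical axis) for the tested synthetases, the ATF4 and stress response genes and the amino acid synthesis genes, 1 point per gene, with dashed lines at 1.5-fold. The synthetases gather near 0 on both axes, Lars2 alone passing 1.5-fold, on the vertical axis, while Asns lies at 3.17 and 2.74.

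Promoter content was then set beside the changes. As deposited, the 5 cytosolic genes with the ATF4 core had a median change with knockout of 0.04 on chow and 0.01 on the high-fat diet. The 8 cytosolic genes whose window lacked it had medians of 0.04 and -0.12. With the core the values on the high-fat diet ranged from -0.49 in Tars to 0.16 in Iars, so genes with a match lay at both ends of the 13 genes with a window.

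The effect of the high-fat diet was examined within each genotype, each comparison sharing its groups with the genotype comparisons above. In flox liver 0 cytosolic and 0 mitochondrial genes rose or fell, beside 1.23% of 10322 genes that rose and 1.68% that fell. Medians were -0.06, -0.16 and, for all genes, -0.01. Below 0 were 17 of 20 cytosolic and 12 of 14 mitochondrial genes, against 52.5% of all genes. The cytosolic direction turned with the sum outside the 50 most abundant genes made equal, when 3 of 20 were below 0. Mitochondrial genes then had 8 of 14 below 0, and the whole table went from 127 rising and 173 falling genes to 212 and 106. The cytosolic genes furthest below 0 were Yars and Kars (both -0.24) and Farsa, a subunit of the phenylalanine enzyme (-0.19). Mars was the furthest above 0, at 14.0 RPKM on chow and 15.5 RPKM on the high-fat diet (log2 0.14). Of the genes for mitochondrial enzymes, Lars2 was at 141 and 104 RPKM (log2 -0.44), Ears2, for glutamate, at -0.25, Yars2 at -0.22 and Tars2 at -0.21.

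In knockout liver the diet was accompanied by lower values of nearly every synthetase as deposited. Below 0 were 19 of 20 cytosolic genes, all but Iars, and 13 of 14 mitochondrial genes, all but Iars2, although with equal sums outside the 50 most abundant genes only 4 of 20 and 10 of 14 were, and with the median ratio at 0 they were 13 and 12. Of all genes 66.4% were below 0, and of genes in the cytosolic range 76.6%. Of the cytosolic genes 0 rose or fell, and of the mitochondrial genes Lars2 fell, where 2.68% of 10328 genes rose and 4.7% fell. Rescaling turned 277 rising and 485 falling genes of the table into 435 and 236, or 702 and 138. Medians were -0.20 for cytosolic, -0.27 for mitochondrial and -0.11 for all genes. Lars2 was at 124 RPKM on chow and 66.5 RPKM on the high-fat diet and fell by 0.89, the one synthetase call that stayed past the threshold under both rescalings (-0.75 and -0.61).

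Macrophage markers were higher in the same comparison, with 7 of 9 risen and a summed level of 156 RPKM on chow and 261 RPKM on the high-fat diet. Of the macrophage markers that rose, Trem2 reached the filter of 1 RPKM only in knockout high-fat liver. Macrophages were not alone in this. Sums were also higher for cholangiocyte and progenitor (51.5 and 123 RPKM) and stellate cell and fibroblast markers (127 and 166 RPKM). They were lower for hepatocyte (14941 and 10256 RPKM) and red blood cell markers (1830 and 872 RPKM). The part of these cell types in the synthetase values was not tested. After Lars2, the differences in knockout liver were smaller. Tars was at 27.7 and 19.1 RPKM (log2 -0.52), Mars at 14.4 and 10.8 RPKM (log2 -0.38), Hars at -0.32 and Qars, for glutamine, at -0.30. Among mitochondrial genes Yars2 was at 9.85 and 6.95 RPKM (log2 -0.45), Fars2 at -0.43 and Nars2 at -0.43. Ddit3 rose by 1.49 with the diet in the same livers and Trib3 by 0.83, while Asns fell by 1.25. In flox liver Asns fell by 0.83, and Ddit3 and Trib3 were at 0.20 and -0.31.

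The difference between the knockout change on the high-fat diet and that on chow, called the interaction, was below 0 in 16 of 20 cytosolic and 12 of 14 mitochondrial genes. Rescaled to a median ratio of 0, or to equal sums outside the 50 most abundant genes, it was below 0 in 9 of 20 and 8 of 14 in each case, so the cytosolic direction did not hold. None of the 34 genes reached 1.5-fold in either direction, where 2.32% of 10319 genes were past it upward and 3.03% downward. Those 239 upward and 313 downward genes became 366 and 172, or 430 and 156, under the rescalings. Sars2 came nearest at -0.54, standing at 4.20, 4.73, 4.56 and 3.22 RPKM. Mars was at -0.52, from 14.0, 15.5, 14.4 and 10.8 RPKM, and both were highest in flox high-fat and lowest in knockout high-fat liver. Lars2 was at -0.46, Tars at -0.45, Nars2 at -0.40, Hars2, for histidine, at -0.37 and Dars and Hars at -0.22 each. Medians were -0.12, -0.18 and, for all genes, -0.10.

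The median of the cytosolic genes less that of the mitochondrial genes was 0.03 for knockout on chow, 0.08 for knockout on the high-fat diet, 0.10 for diet in flox liver, 0.07 for diet in knockout liver and 0.06 for the interaction. These differences were not stable in sign: over the alternatives the first ran from -0.01 to 0.06, the second from -0.11 to 0.14 and the last from -0.03 to 0.10, while those for diet in flox and in knockout liver stayed above 0, from 0.03 to 0.12 and from 0.01 to 0.13. Within the cytosolic set, the 8 genes of the multisynthetase complex (Dars, Eprs, Iars, Kars, Lars, Mars, Qars and Rars) had a median knockout change of 0.02 on chow and -0.14 on the high-fat diet. The 12 outside it had 0.03 and -0.02, and the high-fat medians of both were above 0 under each rescaling. The scaffold genes Aimp1, at 18.5, 16.1, 17.4 and 14.1 RPKM, Aimp2, at 10.2, 8.21, 11.2 and 8.96 RPKM, and Eef1e1, at 6.82, 5.23, 6.21 and 4.74 RPKM, had 0 of 3 past the threshold in each comparison. By structural class of the catalytic domain, the 9 class I genes had a median knockout change of -0.05 on the high-fat diet and the 10 class II genes -0.12, Eprs, which holds both, left out, and these too were above 0 under each rescaling.

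Several members overlap a neighbouring gene on the chromosome, and counting that ignored strand might not separate reads from shared bases. Overlaps were taken between whole gene spans, introns included, so the shared bases need not lie in both transcripts. In GENCODE M21 (GRCm38), 6 of 20 cytosolic and 5 of 16 mitochondrial genes overlap another protein-coding gene. The share among all genes was not calculated, so these counts were not read as a trait of the synthetases. Aars contains Exosc6. Mars (chromosome 10, 127296221 to 127311786) overlaps Ddit3 by 68 bases on the opposite strand, and Mars was lowest where Ddit3 was highest, at 10.8 and 18.0 RPKM in knockout high-fat liver. The part of the overlap in the value of Mars was not tested. Hars and Hars2 overlap each other by 198 bases. Lars2 (chromosome 9, 123366927 to 123462666) and Tars (chromosome 15, 11382301 to 11399665), the genes with the widest ranges in their sets, are not among the overlapping genes.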

How the data were processed

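Values were the RPKM per gene deposited by the authors, per the file headers, with 1 value per gene for each of 4 groups. The submitters' processing notes name TopHat2 2.0.7, Cuffdiff 2.1.1 and the build mm10. The scaling between libraries, the pooling of 2 libraries into 1 value and the use of strand were not stated in the sources used here, and depth is unknown. Rows of repeated symbols (158) were summed, genes listed at 0 in a compared group were left out, and a filter of 1 RPKM in at least 1 group was applied. A pseudocount of 1 RPKM was added before log2. With 1 value per group no test was run. The members, the 15 gene lists, the 7 marker lists and the 1.5-fold threshold were chosen with earlier results of these data known. All members may be named, with changes given for the 4 cytosolic and 4 mitochondrial genes that changed most in each comparison, and up to 4 genes from each other list. Further members at the far side of 0 were named after their values were seen. Python 3.11.15, numpy 2.4.6, pandas 2.3.3 and matplotlib 3.10.9 were used. Only the calculation of changes and the 1.5-fold calls were tested on simulated data, with changes well above that threshold put in. Alternatives covered pseudocount, filter, threshold, zeros, repeated rows, 2 rescalings and 2 omissions. The promoter sequence of Aars is not reported here.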

Additional observations from a re-analysis of the deposited data

How the results depend on the processing

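No paired analysis was possible because the deposited values give 1 number per group, and for the same reason no replicate could be left out. The cytosolic counts stayed at 0 in all 5 comparisons under every alternative run. The mitochondrial count of genes that fell, 1 in knockout against flox on the high-fat diet and 1 in diet within knockout liver, became 0 in both with a 2-fold threshold, and 0 in both without Lars2, an omission chosen after seeing the data. It became 0 in the first comparison alone under each of the 2 rescalings. With a pseudocount of 0.1 RPKM the interaction count went from 0 to 1, Sars2 at -0.66. With a filter of 5 RPKM the cytosolic median less the mitochondrial one, 0.08 for knockout on the high-fat diet, was -0.11. Leaving out the joined value of Aars and Exosc6, also chosen after seeing the data, moved no count. Over all genes, the counts of knockout against flox on the high-fat diet ran from 103 to 774 upward and from 192 to 1101 downward over the alternatives, beside 330 and 860. On chow they ran from 26 to 265 and from 141 to 524, beside 113 and 396. For diet they ran from 22 to 288 and from 44 to 255 in flox liver, beside 127 and 173, and from 69 to 702 and from 82 to 684 in knockout liver, beside 277 and 485. For the interaction they ran from 68 to 442 and from 59 to 483, beside 239 and 313. The highest of these came from the pseudocount of 0.1 RPKM or equal sums outside the 50 most abundant genes, and the lowest from the 2-fold threshold or the pseudocount of 5 RPKM.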

Other observations

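Genes that act before and after the synthetases were read the same way. A list for mitochondrial gene expression had 16 tested genes, mostly translation factors and subunits of the amidotransferase that makes mitochondrial glutaminyl-tRNA, together with Tfam, which packages mitochondrial DNA, Polrmt, the mitochondrial RNA polymerase, and Lrpprc, which stabilises mitochondrial messages. Of the 16, 0 passed 1.5-fold in any of the 5 comparisons. Over these comparisons 1.09% to 3.2% of all genes were past it upward and 1.68% to 8.33% downward. At such shares a 0 in a list this short was not read as a result. The interaction was below 0 in 16 of 16 genes, with a median of -0.32, and in 15 of 16 under each of the 2 rescalings, with medians of -0.20 and -0.18. Of all genes 67.9% were below 0 as deposited, and 48.6% and 44.5% under the rescalings. Tufm, the mitochondrial elongation factor, stood at 57.6 RPKM on chow and 53.0 RPKM on the high-fat diet in flox liver, and at 63.5 and 48.4 RPKM in knockout liver. Tsfm, its exchange factor, stood at 9.60, 8.95, 10.6 and 6.99 RPKM in the same order, and both were highest in knockout chow and lowest in knockout high-fat liver.

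Among 17 tested genes of tRNA processing and modification 0 passed the threshold in any comparison, beside the shares of all genes just given. Their interaction was below 0 in 14 genes as deposited, with a median of -0.25, and in 14 and 12 genes under the rescalings. Of all genes 67.9% were below 0 as deposited, and 48.6% and 44.5% under the rescalings. Of 7 tested cytosolic elongation factors and tRNA export genes, Eef1g, a subunit of the complex that recharges the elongation factor delivering tRNA, fell by 0.74 in log2 in knockout against flox on the high-fat diet, from 82.2 to 48.9 RPKM, and none of the 7 passed under either rescaling.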
